A study of Mus musculus with 10 samples.

Results

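The 41 genes described here encode enzymes, membrane proteins and regulators of the lysosome. They were chosen by name, and Grn and Hgsnat were in the list because both had stood out in earlier results of these same arrays. A gene counted as a member when probes outside the array's controls carried its symbol. Each gene was given 1 value, that of its probe with the highest mean signal. All 41 of 41 members were found among the 34832 gene names on the array, and 37 of them passed the filter on dim probes, among 32054 genes tested in all. Ids, Scarb2 and Tpp1 were well above background on 0 of 10 arrays and Manba on 1, so these 4 members were not tested.

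The lysosome is the acidic compartment in which cells break down proteins, sugars, sulphated chains and lipids. Its soluble hydrolases are carried to it by sorting receptors, a proton pump keeps its lumen acid, and heavily glycosylated proteins line its membrane. In the brain, microglia and other phagocytes carry large amounts of lysosomal proteases and of the membrane proteins CD68 and CD63. Loss of single members causes lysosomal storage disease, progranulin loss leads to neuronal ceroid lipofuscinosis, and loss of the acetyltransferase encoded by Hgsnat to a form of Sanfilippo syndrome.

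The arrays came from mice treated with the neurotoxin MPTP. All recipients were grafted 3 days after the last injection with lineage-negative haematopoietic stem and progenitor cells (HSPCs) of donor bone marrow, on one side over the substantia nigra. Cells were sorted 1 week later, with 2 mice pooled per replicate, and amplified cDNA (500 ng) was labelled with Cy3. R26Y recipients hold a YFP gene that is expressed only after Cre has acted, and they received HSPCs with Cre and RFP, so that a red and yellow (RFP+YFP+) cell is a product of fusion, called an R26Y hybrid here. GFAP-Cre recipients, with Cre behind an astrocyte promoter, and FoxA2-Cre recipients, with Cre driven by Foxa2, which encodes a factor of midbrain floor plate cells, received HSPCs with the R26Y reporter. Their red and yellow cells are called GFAP-Cre and FoxA2-Cre hybrids. The red-only (RFP+) cells are called unfused: 1 group combined cells of R26Y with those of GFAP-Cre recipients and another came from FoxA2-Cre recipients. In the Cre recipients YFP reports fusion with a Cre-expressing cell, so a red-only cell there may also have fused, with a partner that lacks Cre. Age, strain and sex of the mice are not given in the sources used here. Each of the 5 groups had 2 arrays, and nothing states that replicates were separate grafting experiments, so p-values measure the spread between these samples, which may be partly technical.

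The 6 arrays of R26Y, GFAP-Cre and pooled unfused cells lay on 1 slide and the 4 FoxA2-Cre arrays on another, so slide and recipient set cannot be told apart and comparisons were made within a slide. Spots well above background made up 64.3% to 86.7% on the first slide and 19.8% to 49.2% on the FoxA2-Cre slide. R26Y hybrid replicate 2 stood apart from the other arrays of its slide, with 64.3% against 81.4% to 86.7%. In the FoxA2-Cre set, hybrids took row 1 of the slide and unfused cells row 2, so the row and the cell type cannot be told apart there. Microglia markers were well above background on at least 5 arrays for 15 of 16 genes, and neutrophil markers for 14 of 15. The same held for 11 of 12 monocyte and macrophage markers, 9 of 10 stem and progenitor, 9 of 10 lymphoid and 7 of 9 neuron markers. It held for 6 of 8 erythroid, 6 of 8 oligodendrocyte and 6 of 8 endothelium and pericyte markers. For astrocytes this held for 6 of 10 markers, and Slc1a3 was well above background on none. With most spots of the first slide well above background, these counts identify no cell type. In sorted cells of this kind, fewer cells of a type and less RNA per cell cannot be told apart.

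The probes behind the values differ in what they can measure, so the sequences on which the results turn are shown first. Grn was measured by a single probe on the plus strand at chr11:102297692-102297751 (mouse build mm9, as the array files give it), which shares no stretch of 20 bases with a probe of another gene. The probes used for Sgsh (chr11:119204865-119204924, minus strand) and Idua (chr5:109112893-109112952, plus strand) hold tandem dinucleotide repeats of 11 and 10 copies. They share 20 bases with probes of 78 and 72 other genes. The probe used for Galns (chr8:125102144-125102203, minus strand) shares a stretch with probes of 2 other genes. The lines below give the Grn probe whole and 30 bases of each of the others, 5′ to 3′, with the repeat or the shared stretch in capitals.
Grn: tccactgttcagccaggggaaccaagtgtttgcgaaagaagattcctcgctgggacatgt
Sgsh: cacaTGTGTGTGTGTGTGTGTGTGTGcgtg
Idua: CACACACACACACACACACAgagtctaaat
Galns: ggAGTGCTGGGATTAAAGGCGTGCGCCAtc
Whether these probes lie in a coding exon or an untranslated region was not analysed here, because the annotation at hand is of another build.

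Many lysosomal genes carry the sequence CACGTG, the core of the element bound by TFEB and its relatives, near their start. In RefSeq promoter windows (GRCm38.p6, 250 bases before to 50 after the start), 36 of the 41 members had an entry, and Ctsb, Npc1, Asah1, Galns and Hgsnat had none. The letters CACGTG, which read the same on both strands, occurred in 13 of 36 members (36.1%) and in 8.09% of the 27025 genes with a window. The longer TCACGTGA, which contains CACGTG and is also its own reverse complement, occurred in 6 of 36 members (16.7%) and in 1.12% of all these genes. These members were Cln3, Ctsd, Mcoln1, Atp6v0d1, Atp6v1a and Gla. Lamp1, Mcoln1, Cln3, Ctsd and Gla had more than 1 core. Stretches of the first 3 are shown because their cores lie close together, while those of Ctsd start 245 and 98 bases before the start of the gene and those of Gla 227 and 194. CACGTG is in capitals, 5′ to 3′ on the gene's strand.
Lamp1, chr8:13159084-13159160, plus strand: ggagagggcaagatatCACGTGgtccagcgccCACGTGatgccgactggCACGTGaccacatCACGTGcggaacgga
Mcoln1, chr8:3500432-3500495, plus strand: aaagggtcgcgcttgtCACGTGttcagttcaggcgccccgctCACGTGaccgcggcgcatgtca
Cln3, chr7:126583336-126583401, minus strand: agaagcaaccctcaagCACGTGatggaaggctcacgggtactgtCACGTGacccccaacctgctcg
Lamp1 had 4 cores within 77 bases, and Mcoln1 and Cln3 had 2 each. A match is a description of letters only.

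**Figure D1:**
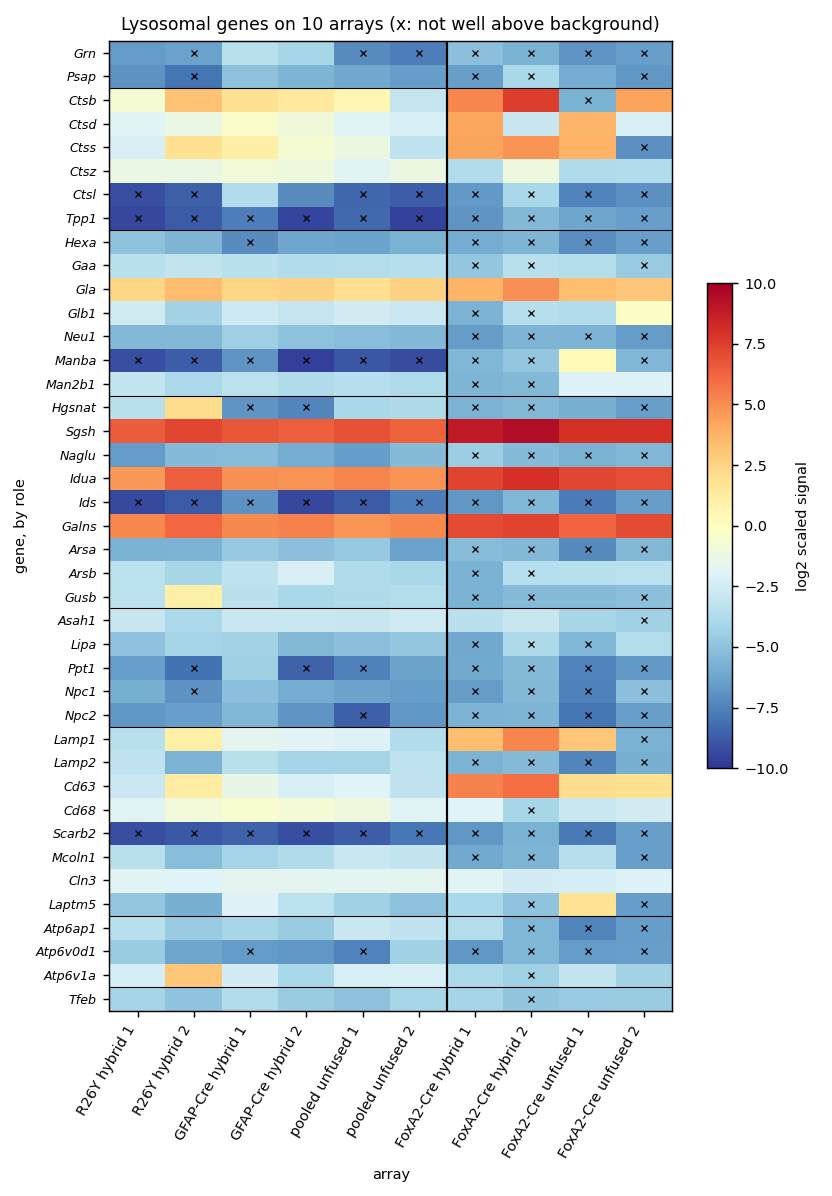
Level of each of the 41 genes (rows, by role) on each of the 10 arrays (columns, the vertical line parts the slides), as log2 scaled signal. Crosses mark values not well above background: 5 to 9 members on each array of the first slide and 17 to 29 on each FoxA2-Cre array.

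All levels below are on a log2 scale set by each array's own 75th percentile of processed signal, so 0 stands for that percentile, 1 unit is a doubling, and levels of different probes are not compared. Depth limited what could be read. Of the 41 members, 36 and 32 were well above background in the 2 R26Y hybrid samples, 34 and 35 in GFAP-Cre hybrids, and 32 and 35 in pooled unfused samples. In FoxA2-Cre samples only 17 and 12 were so in hybrids, with 24 and 16 in unfused samples. Only Ctsd, Ctsz, Gla, Sgsh, Idua, Galns, Cd63 and Cln3 were well above background on all 10 arrays. The map of levels by gene and array shows 2 kinds of rows, those that stay nearly level along a slide, such as Cln3, and those in which single arrays stand apart, such as Ctsb, Ctss and Laptm5.

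Grn encodes progranulin, a secreted and lysosomal glycoprotein that is cut into granulins. Its level was -3.47 and -4.07 in GFAP-Cre hybrids, -6.59 and -6.34 in R26Y hybrids, and -7.14 and -7.62 in pooled unfused cells. On the FoxA2-Cre slide it was -5.09 and -5.72 in hybrids and -6.85 and -6.44 in unfused cells. Both GFAP-Cre arrays lay above the other 4 arrays of their slide, and hybrids lay above unfused cells without overlap in all 3 recipient types. The probe was well above background on only 3 arrays, both GFAP-Cre hybrid arrays and R26Y hybrid replicate 1. The mean was -3.77 ± 0.42 (SD, n = 2) in GFAP-Cre hybrids and -7.38 ± 0.34 (SD, n = 2) in pooled unfused cells. The unfused cells were below background, so Grn was at least 12-fold higher by this processed signal. Because Grn was picked for this contrast, the difference is a description with no test. It was as low as 1.34 on the log2 scale with the authors' matrix and with normexp background correction, against a fitted 3.61 here. In FoxA2-Cre hybrids against their unfused cells the fitted log2 difference was 1.24 ± 0.53 (SE; limma, adjusted p = 0.575), with both groups below background, so no fold is given, and its sign turned to -0.45 with quantile scaling.

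Hgsnat encodes the membrane enzyme that acetylates terminal glucosamine of heparan sulphate inside the lysosome. Its level was -3.45 and 2.16 in R26Y hybrids, -6.82 and -7.38 in GFAP-Cre hybrids, and -4.06 and -3.86 in pooled unfused cells. On the FoxA2-Cre slide it was -5.68 and -5.46 in hybrids and -5.84 and -6.45 in unfused cells, and well above background only on 1 unfused array. GFAP-Cre hybrids lay below every other array of their slide and were not well above background, while R26Y hybrids lay above the pooled unfused cells. Hgsnat was at least 7.92-fold lower in GFAP-Cre hybrids than in pooled unfused cells and at least 78.5-fold lower than in R26Y hybrids. The second bound rests on R26Y hybrid replicate 2: the log2 difference between GFAP-Cre and R26Y hybrids was -6.45 with both R26Y arrays, -9.26 without replicate 1 and -3.65 without replicate 2. For R26Y hybrids against pooled unfused cells it was 3.31, and 0.50 without that replicate. Because the contrast that put Hgsnat in the list is not known, its own differences are given with no test.

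**Figure D2:**
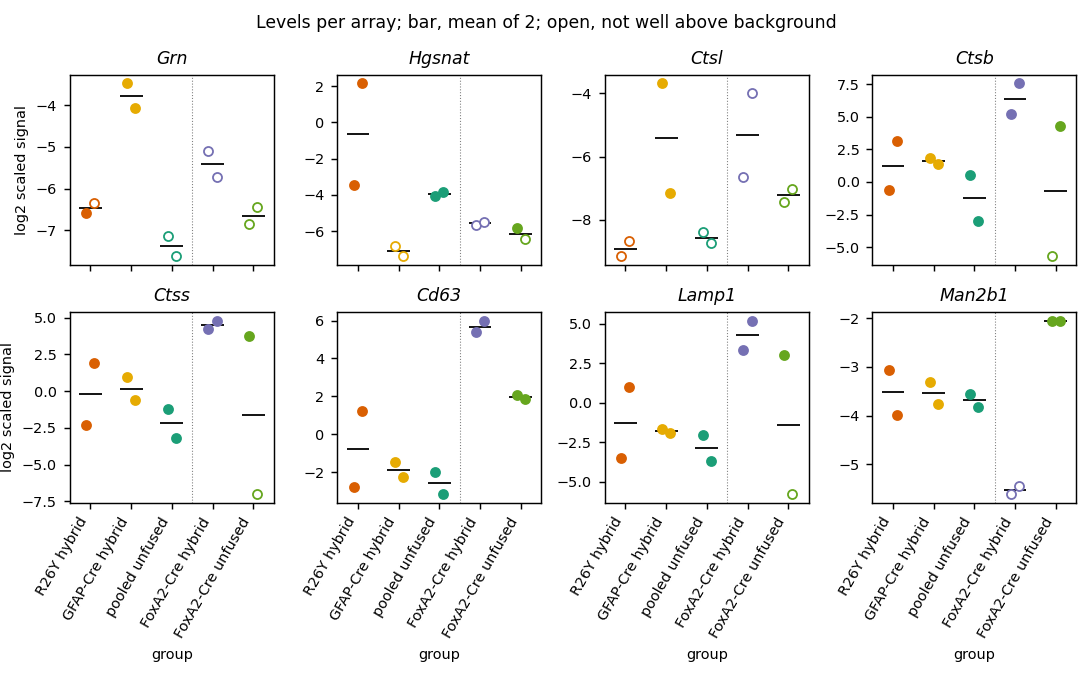
Levels of 8 members on each array, by group, as log2 scaled signal, with a bar at the mean of 2 arrays and open points for values not well above background. Grn is highest in GFAP-Cre hybrids (-3.47 and -4.07), Hgsnat is lowest there (-6.82 and -7.38), and the 2 FoxA2-Cre unfused arrays lie far apart for Ctsb, Ctss and Lamp1.

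Grn and Hgsnat had a Pearson correlation of -0.51 over the 10 arrays after each slide's mean was subtracted. They lay on opposite sides of the unfused cells in GFAP-Cre hybrids, while in R26Y and FoxA2-Cre hybrids both lay higher without overlap. In FoxA2-Cre hybrids neither gene was well above background, so their order there is one of values below background, not a measured rise. The members whose pattern was most like that of Grn on this measure were Ctsl (0.77), Npc2 (0.62), Arsa (0.56), Cd68 (0.50) and Psap (0.50), and 24 of the 36 other tested members had a positive value. Ctsl was well above background only on the 2 GFAP-Cre hybrid arrays, and Grn, picked for its GFAP-Cre contrast, on 3 arrays. Their likeness thus follows largely from the choice and the filter and supports nothing. Most like Hgsnat were Atp6v1a (0.92), Gusb (0.87) and Idua (0.80). Atp6v1a encodes the catalytic subunit of the proton pump and Gusb the enzyme beta-glucuronidase. On R26Y hybrid replicate 2, Atp6v1a was at 2.99 and Gusb at 1.01, each above the other 5 arrays of the slide, none of which exceeded -2.31 for Atp6v1a or -3.35 for Gusb. These 10 arrays share slides, depth and amplification, so the correlations are descriptions.

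The first comparison asks how R26Y hybrids differ from the pooled unfused graft cells of their slide. No member passed the test: 0 of 37 members and 0 of 32054 genes (0%) passed an adjusted p of 0.05 in limma. The unadjusted p was under 0.05 for 0 members and 442 genes (1.38%). Leaving out Grn and Hgsnat, the arrays of both groups did not overlap for 6 of 35 members that were higher in R26Y hybrids (17.1%, against 10.6% of all genes tested) and 5 that were lower (14.3%, against 19.5%). The median log2 difference was 0.17 over these 35 members, 0.20 over all 37 and -0.26 over all genes tested, and 22 of the 35 lay above 0.

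Among members whose arrays did not overlap, the largest differences on the higher side were those of Hgsnat, Gusb, Npc2 and Grn. Gusb was at -3.35 and 1.01 in R26Y hybrids and at -3.86 and -3.63 in pooled unfused cells, a fitted log2 difference of 2.57 ± 1.21 (SE, adjusted p = 1.00 in limma). The R26Y arrays lay further from each other than replicate 1 lay from the unfused cells. A second Gusb probe, well above background on 8 arrays, was at -4.02 and -4.25 against -3.96 and -3.91, a difference of -0.20. Npc2, a cholesterol-binding protein of the lumen, was at -6.77 and -6.48 against -8.65 and -6.79. On the lower side stood Mcoln1, Psap, Atp6ap1 and Cln3. Mcoln1, a calcium channel of the lysosomal membrane, was at -3.47 and -5.18 in R26Y hybrids and -2.89 and -3.07 in the pooled unfused ones, a fitted difference of -1.35 ± 0.98 (SE, limma, adjusted p = 1.00). Its other probe, well above background on 6 arrays, had a difference of -0.42. Psap, the precursor of the saposins that help degrade sphingolipids, was at -6.90 and -7.90 against -6.13 and -6.55, and with normexp its difference was 0.12. Atp6ap1, an accessory subunit of the proton pump, was at -3.45 and -4.64 against -2.82 and -3.17. The other Atp6ap1 probe, well above background on 4 arrays, had a difference of 0.37. Cln3, a membrane protein mutated in juvenile Batten disease, differed by only -0.19, and by 0.01 with quantile scaling. Without R26Y hybrid replicate 1, which leaves the array that stood apart as the only R26Y array, 2304 genes passed and, leaving Hgsnat aside, 3 members (Atp6v1a, Cd63 and Gusb, all higher), with the lone array assumed to vary like the others.

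The second comparison set GFAP-Cre hybrids against the pooled unfused arrays already used, so it shares its controls with the first. No member passed here either, with 0 of 37 members and 0 of 32054 genes (0%) past an adjusted p of 0.05 in limma. At an unadjusted p under 0.05 there were 518 genes (1.62%) and, leaving out Grn and Hgsnat, 1 of 35 members, Ctsl. Ctsl was well above background only in the GFAP-Cre hybrids and so passed the filter only through them, and its p and its lack of overlap support nothing. Among the other 34 members the unadjusted p was under 0.05 for 0. The arrays did not overlap for 12 of these 34 members on the higher side (35.3%, against 19.9% of all genes) and for 3 on the lower side (8.82%, against 14.4%). The members' median log2 difference was 0.33 and that of all genes tested 0.03. With slide column as a term the order turned, with 0.015 for the members and 0.24 for all genes. Among the 30 members well above background on all 4 arrays the median was 0.33, against 0.04 over the 27428 genes so measured.

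Cathepsins are the main proteases of the lysosome. Ctsb, Ctsd, Ctss and Ctsz lay higher in both GFAP-Cre hybrid arrays than in both pooled unfused arrays, with a median difference of 1.87, and none of these 4 passed the adjusted threshold. Of the tested cathepsins in a second list of lysosomal genes, described below, Ctsa, Ctsf and Ctso also lay higher without overlap, while Ctsc and Ctsh overlapped. Ctsg, a cathepsin among the neutrophil markers, overlapped too, at -3.68 and -3.93 in GFAP-Cre hybrids against -1.53 and -3.77. Ctsa was at -1.04 and -1.62 in GFAP-Cre hybrids against -2.60 and -3.59. Ctsf was at -2.92 and -3.04 against -3.64 and -3.31, and Ctso at -2.63 and -2.13 against -3.10 and -2.70. Ctsc was at -4.06 and -3.84 against -3.05 and -3.89, and Ctsh at -3.63 and -4.33 against -3.99 and -4.05. Ctsb was at 1.81 and 1.38 in GFAP-Cre hybrids and at 0.52 and -3.03 in pooled unfused cells, a difference of 2.85 ± 2.97 (SE, limma, adjusted p = 1.00). Ctss, a cathepsin of microglia and antigen-presenting cells, was at 0.95 and -0.64 against -1.19 and -3.17. With slide column as a term, its difference turned from 2.33 to -2.28. Ctsl was at -3.68 and -7.15 against -8.39 and -8.75, and, with the unfused cells below background, at least 4.15-fold higher. The 2 Ctsl arrays of the GFAP-Cre hybrids were 3.46 apart, more than the 3.16 between the group means.

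Among the membrane proteins, Laptm5 of haematopoietic cells was at -2.10 and -3.32 in GFAP-Cre hybrids against -4.35 and -5.02, a difference of 1.98. Its other probe, well above background on 6 arrays, overlapped, at -3.16 and -4.98 against -4.82 and -5.06, a difference of 0.87. Cd68, a marker of phagocytes, was at -0.49 and -0.72 against -1.02 and -1.92. Lamp1, a main glycoprotein of the membrane, was at -1.66 and -1.93 against -2.05 and -3.72. The 3 proton pump genes were all below 0 in this comparison, with a median of -0.93 (0 of 3 past the threshold). Atp6ap1 was at -4.09 and -4.58 in GFAP-Cre hybrids against -2.82 and -3.17, a difference of -1.34, but of 0.13 when its 2 probes were averaged. Atp6v1a was at -2.48 and -4.01 against -2.31 and -2.32, and its difference was 0.79 with slide row as a term. Mcoln1 was at -4.20 and -3.79 against -2.89 and -3.07, a difference of -1.02, while its other probe was at -3.85 and -4.09 against -4.74 and -4.66, a difference of 0.73.

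The microglia list had a mean level of -2.33 and -2.70 in GFAP-Cre hybrids, -3.10 and -2.73 in R26Y hybrids and -3.21 and -3.30 in pooled unfused cells, with 15, 15, 15, 12, 15 and 15 of its 16 genes well above background. The neutrophil list ran the other way, with -2.98 and -3.47, -3.19 and -4.51, and -1.94 and -2.44 in the same order, and 13, 14, 14, 11, 15 and 14 of 15 genes well above background. On the FoxA2-Cre slide the microglia list was at -1.88 and -2.24 in hybrids and -3.03 and -2.54 in unfused cells (11, 6, 12 and 9 of 16), and the neutrophil list at -4.38 and -3.17 against -1.56 and -1.96 (5, 4, 11 and 8 of 15). Both lists moved with the hybrid groups without overlap on either slide. The astrocyte list was lower in GFAP-Cre hybrids, at -5.0 and -5.37, than in pooled unfused cells, at -4.77 and -4.61 (7, 6, 8 and 8 of 10 genes well above background). R26Y hybrids lay on both sides of these, at -4.42 and -6.21 (9 and 5 of 10). On the FoxA2-Cre slide the astrocyte list overlapped, at -5.16 and -4.15 in hybrids and -5.34 and -4.52 in unfused cells (2, 4, 4 and 3 of 10). The stem and progenitor list was at -3.92 and -4.17 in R26Y hybrids, -4.09 and -3.99 in GFAP-Cre hybrids and -3.83 and -3.90 in pooled unfused cells, and at -4.52 and -3.58 against -3.86 and -4.28 on the FoxA2-Cre slide, where the groups overlapped. The part of these 4 lists in the levels of cathepsins and membrane proteins was not tested.

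FoxA2-Cre hybrids were compared with the unfused cells of the same recipients on the dim slide. Here 1 of 37 members, Man2b1, fell, and 173 of 32054 genes (0.54%) passed the adjusted threshold, 17 higher and 156 lower in hybrids. Without Grn and Hgsnat, the unadjusted p was under 0.05 for 4 of 35 members (11.4%), 3 higher (Atp6ap1, Cd63 and Ctsb) and 1 lower (Man2b1), and for 2779 genes (8.67%). Atp6ap1 was below background in the unfused cells and well above it on only 1 of 2 hybrid arrays, so no fold is given. The arrays did not overlap for 16 of these 35 members on the higher side (45.7%, against 26.5% of all genes) and for 2 on the lower side (5.71%, against 10.6%). Of those 16 members, 7 were below background in both groups, 1 in 1 group, and 8 were measured in both. The median was 0.53 over the 35 members and 0.57 over all 37, beside 0.36 over all genes, and over all 37 it was 0 with members below background set at their bounds. The 8 members well above background on all 4 arrays had a median of 0.83, and the 7742 genes so measured one of 0.28. Sgsh, Idua, Galns and Gla are among these 8, and the 4 members left without them had a median of 0.68. The median over the 37 members was -0.039 with quantile scaling and -0.023 with the authors' matrix.

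Man2b1, an alpha-mannosidase that trims sugar chains of glycoproteins (probe at chr8:87621348-87621407, plus strand, mm9), was at -5.60 and -5.44 in FoxA2-Cre hybrids and at -2.06 and -2.05 in the unfused cells. On the other slide it lay between -3.98 and -3.07 on all 6 arrays. The fitted log2 difference was -3.46 ± 0.52 (SE, limma, adjusted p = 0.0417, lower in 2 of 2 hybrid arrays). Since no hybrid array was well above background, Man2b1 was at least 4.56-fold lower by this processed signal. The fitted log2 difference was only -0.70 with normexp and -1.44 with the authors' matrix. The call was lost with normexp (-0.70, adjusted p = 0.422), with the authors' matrix (adjusted p = 0.1), on the arrays of this slide alone (adjusted p = 0.401), with slide row (0.499), slide column (0.67) or array weights (0.112), and without any single FoxA2-Cre array (adjusted p 0.0624 to 0.0866). It was also lost without shared probes (0.0602) and when an array of the pooled unfused cells (0.145) or of the GFAP-Cre hybrids (0.124) was left out. It held with the other scalings, filters and probe rule and without either R26Y hybrid array, with adjusted p from 0.0234 to 0.046. Arsb, which removes sulphate from dermatan sulphate, was the other member lower without overlap. It was at -5.72 and -3.54 in hybrids, not well above background, and -3.50 and -3.31 in unfused cells, and its difference turned from -1.22 to 0.26 with normexp. The other Arsb probe, well above background on 4 arrays, had a difference of -0.06, with overlap.

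On the higher side, Ctsb, Ctss, Lamp1 and Cd63 had the largest differences, and none passed the adjusted threshold. Ctsb was at 5.21 and 7.58 in FoxA2-Cre hybrids and at -5.71 and 4.32 in the unfused cells, a difference of 7.08 ± 2.97 (SE, limma, adjusted p = 0.573). Ctss was at 4.24 and 4.78 against 3.76 and -6.99, and Lamp1 at 3.33 and 5.21 against 3.01 and -5.77. In each of these 3 genes the unfused arrays lay further from each other than the group means did, and different arrays were low. Ctsb was low on unfused replicate 1, Ctss and Lamp1 on replicate 2, each where the probe was not well above background. Leaving out unfused replicate 2 made Ctsb pass at 12.1 (adjusted p = 0.0412), and leaving out replicate 1 made Ctss pass at 11.5 (adjusted p = 0.0425), each with an array below background as the only unfused one. Without the other unfused array the difference was 2.07 for Ctsb (adjusted p = 0.899) and 0.75 for Ctss (adjusted p = 0.875). Laptm5, at -4.02 and -4.94 in hybrids and 1.75 and -6.49 in unfused cells, passed as lower without replicate 2 (-6.22, adjusted p = 0.0233).

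Cd63, a tetraspanin of late endosomes and lysosomes, was at 5.38 and 5.99 in FoxA2-Cre hybrids and 2.08 and 1.89 in unfused cells, all 4 well above background, a difference of 3.70 ± 1.18 (SE, limma, adjusted p = 0.434). Replicates lay within 0.62 of each other here, while the R26Y hybrid arrays on the other slide were 4.0 apart, at -2.77 and 1.24. Over the 37 members, replicate pairs differed by a median of 0.45 in pooled unfused cells, 0.57 in GFAP-Cre hybrids, 0.74 in FoxA2-Cre hybrids, 0.78 in FoxA2-Cre unfused cells and 1.01 in R26Y hybrids. Gaps above 5 occurred in 5 members in FoxA2-Cre unfused cells (Ctsb, Ctsd, Ctss, Lamp1 and Laptm5) and in 1 member, Ctsd, in FoxA2-Cre hybrids. In R26Y hybrids they occurred in Hgsnat and Atp6v1a. Of all genes tested, 4.28%, 2.92% and 4.6% had such gaps in these groups. Ctsd, the main aspartic protease, was at 4.14 and -2.94 in FoxA2-Cre hybrids and 3.63 and -2.27 in unfused cells, so its replicates spread alike in both.

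**Figure D3:**
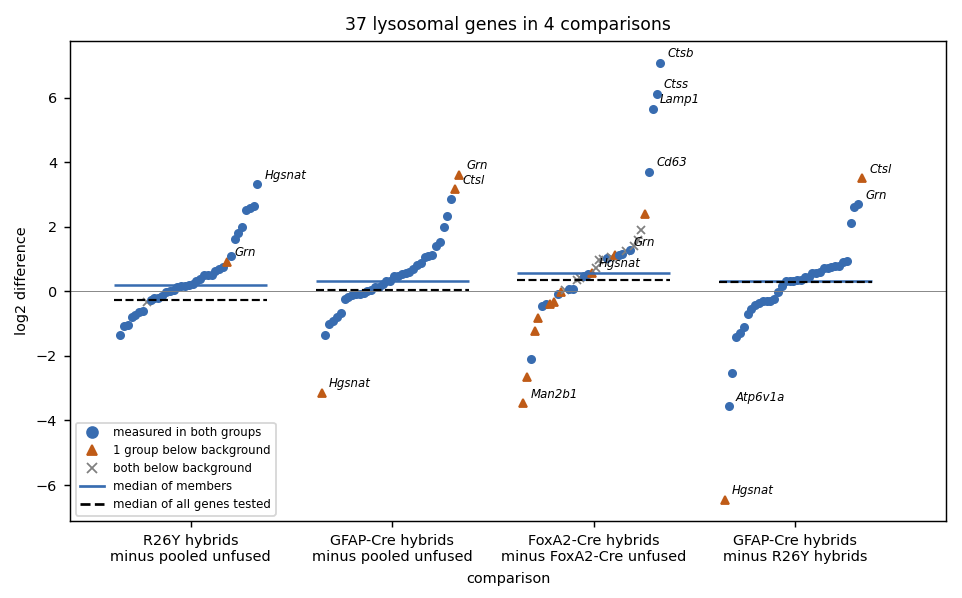
Fitted log2 differences of the 37 members that passed the filter (points, in rising order) in 4 comparisons, with the members' median (solid line) and that of all genes tested (dashed line). The members' medians are 0.20, 0.33, 0.57 and 0.33 from left to right. Triangles mark members with 1 group below background and crosses those with both below, which in FoxA2-Cre cells are 10 and 11 members.

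GFAP-Cre hybrids were also compared with R26Y hybrids, which contrasts fusion partners that express Cre under the Gfap promoter with recipient cells of any type. No member passed, with 0 of 37 members and 0 of 32054 genes (0%) past an adjusted p of 0.05 in limma. At an unadjusted p under 0.05 there were 879 genes (2.74%) and, without Grn and Hgsnat, 4 of 35 members (11.4%): Ctsl and Psap on the higher side, Atp6v1a and Hexa on the lower. Here too Ctsl passed the filter only through the GFAP-Cre hybrids, which leaves 3 of 34. Arrays did not overlap for 10 of these 34 members on the higher side (29.4%, against 20.2%) and 4 on the lower side (11.8%, against 7.53%). The median was 0.33 over the 37 members and 0.29 over all genes, and 22 of 37 members (59.5%) and 66.8% of all genes lay above 0. The members' median was -0.04 with quantile scaling.

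Psap was at -5.01 and -5.57 in GFAP-Cre hybrids and -6.90 and -7.90 in R26Y hybrids, a difference of 2.11 ± 0.85 (SE, limma, adjusted p = 1.00), and its 2 groups did not overlap. Progranulin and prosaposin, the product of Psap, bind each other and travel to the lysosome together. Ctsl, at -3.68 and -7.15 against -9.15 and -8.67, was at least 2.75-fold higher in GFAP-Cre hybrids, and Laptm5 was at -2.10 and -3.32 against -4.78 and -5.83. On the lower side, Hexa, a subunit of beta-hexosaminidase, was at -7.16 and -6.22 in GFAP-Cre hybrids and at -5.00 and -5.55 in R26Y hybrids, a difference of -1.42 ± 0.57 (SE, limma, adjusted p = 1.00). Atp6v1a (-3.57) and Gusb (-2.53) rest on R26Y hybrid replicate 2, as given above, and the second Gusb probe had a difference of 0.39. With that array as the only R26Y hybrid, 2169 genes passed and, leaving Hgsnat aside, 2 members (Atp6v1a and Gusb, both lower in GFAP-Cre hybrids).

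When the 6 hybrid arrays were set against the 4 unfused arrays with the recipient set as a covariate, 0 of 37 members and 0 of 32054 genes (0%) passed in limma. At an unadjusted p under 0.05 there were 1001 genes (3.12%) and, without Grn and Hgsnat, 3 of 35 members (8.57%), all higher: Npc2 (1.43), Cd63 (2.31) and Ctsb (4.57). Npc2 passed the filter only through hybrids, as did Grn, Ctsl, Ppt1 and Atp6v0d1, so their place on the higher side supports nothing. Of the 37 members, 30 (81.1%) lay above 0, as did 52.2% of all genes, and the medians were 0.39 and 0.03. The 30 include all of the members that passed the filter only through hybrids, and no count without them was made. Without Grn, Hgsnat and the 4 members with the brightest probes (Sgsh, Idua, Galns and Gla), 24 of 31 (77.4%) lay above 0 with a median of 0.34. Ctsl, Ppt1, Npc2 and Atp6v0d1 are still among these 24. The members' median exceeded that of all genes by 0.11 to 0.43 on the log2 scale over the 24 settings tried, the reported one included. For R26Y hybrids against unfused cells alone this excess ran from 0.02 to 0.99. It crossed 0 for GFAP-Cre hybrids (-0.23 to 0.73), FoxA2-Cre hybrids (-0.21 to 0.40) and GFAP-Cre against R26Y hybrids (-0.37 to 0.15). By role, in all hybrids against unfused cells, all 5 cathepsins tested, 7 of 8 enzymes of glycosaminoglycan breakdown and 4 of 5 lipid genes lay above 0. So did all 3 proton pump genes, 4 of 6 glycosidases and 4 of 7 membrane proteins. These counts also hold Ctsl among the cathepsins, Ppt1 and Npc2 among the lipid genes and Atp6v0d1 among the proton pump genes. Grn was at 1.82, below Ctsb, Ctss (3.86), Lamp1 (3.20) and Cd63. The lowest were Glb1, beta-galactosidase (-1.43), Man2b1 (-1.40) and Mcoln1 (-1.03), named after their values were seen.

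An interaction term tested whether hybrids differed from unfused cells unequally in the 2 recipient sets. No member passed (0 of 37), while 55 of 32054 genes (0.172%) did, 7 higher and 48 lower in FoxA2-Cre cells. At an unadjusted p under 0.05 there were 2 of 37 members (5.41%), Man2b1 (-3.62, adjusted p = 0.104, and -3.77 with adjusted p = 0.038 without R26Y hybrid replicate 2) and Atp6ap1 (3.58, adjusted p = 0.471, with the FoxA2-Cre unfused cells below background), and 2002 genes (6.25%). Slide, depth and recipient set cannot be told apart in this test.

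Tfeb, the transcription factor that drives lysosomal genes through the CACGTG element, lay between -5.04 and -3.69 on all 10 arrays. Its difference was 0.02 in R26Y hybrids, 0.47 in GFAP-Cre hybrids and 0.06 in FoxA2-Cre hybrids against their unfused cells. Each was smaller than the gap between the hybrid replicates, while the FoxA2-Cre unfused replicates were only 0.05 apart. The 13 tested members with CACGTG in their promoter window had median differences of 0.22, 0.02 and 0.41 in these comparisons, and the 19 with a window but no such letters 0.17, 0.54 and 0.97. Asah1, acid ceramidase and the brightest probe of the lipid genes, lay between -4.33 and -2.64 on all arrays. Its difference of 1.04 ± 0.54 (SE, limma, adjusted p = 0.616) in FoxA2-Cre hybrids was without overlap. The other Asah1 probe, well above background on 5 arrays, went the other way there. It was at -6.57 and -5.39 in hybrids and -6.19 and -4.66 in unfused cells, a difference of -0.56 with overlap.

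Probes of the same gene disagreed in several members, and the highest-mean rule favours the brighter one. Sgsh, which removes sulphate from heparan sulphate, had levels of 6.38 to 9.44 with the repeat-bearing probe shown above and of -9.53 to -5.53 with its other probe (chr11:119204805-119204864), which was well above background on 1 array. Idua, which cleaves iduronic acid from the same chain, had 4.67 to 7.90 with the repeat-bearing probe and -4.10 to -2.68 with the other (chr5:109113517-109113576). The 110 probes on the array with at least 8 such dinucleotide copies had a median level of 6.68, and all 55681 probes one of -4.78. Galns, an enzyme that removes sulphate from keratan sulphate, was at 4.76 to 7.33 with its single probe. In 14 members with more than 1 probe, the means of the probes lay over 5 apart in 4: Sgsh (14.8), Idua (9.53), Ctsd (6.0) and Cln3 (5.51). What these probes detected was not tested, and the levels of Sgsh, Idua and Galns are given as uncertain. The members' medians without these 3 and Gla, whose probe was also bright at 3.01 on average, are part of the counts above.

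**Figure D4:**
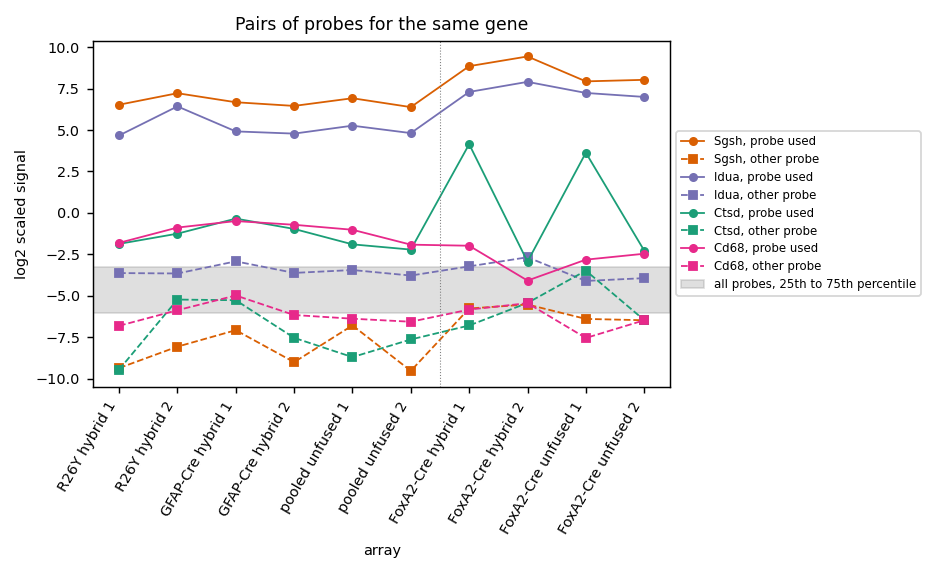
Levels of both probes of Sgsh, Idua, Ctsd and Cd68 on each array, as log2 scaled signal, solid for the probe used and dashed for the other, with the 25th to 75th percentile of all probes as a grey band. The repeat-bearing probes of Sgsh and Idua stay between 4.67 and 9.44 on all arrays, while the other Sgsh probe lies between -9.53 and -5.53.

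A second list of 70 further lysosomal genes was examined in the same fits, and 68 were on the array by name and 59 were tested. None of the 59 passed the adjusted threshold in any of the 6 tests of limma. At an unadjusted p under 0.05, 0 were higher and 2 lower in R26Y hybrids (Laptm4a at -2.26, and Sumf1 at -1.97, which passed the filter only through unfused cells), 0 and 0 in GFAP-Cre hybrids, and 6 and 2 in FoxA2-Cre hybrids against their unfused cells. Of all genes tested, 1.38%, 1.62% and 8.67% had such a p in these comparisons. In GFAP-Cre against R26Y hybrids there were 2 and 0 (2.74% of all genes), among them Laptm4a at 2.05. All hybrids had 4 and 0 (3.12% of all genes), among them Ctsa (4.81), a protective carboxypeptidase, and Tcirg1 (1.32), a subunit of the proton pump, and 2 of the 4 passed the filter only through hybrids. The interaction had 4 (Ctsa, Laptm4b, Sumf1 and Tcirg1, at 6.64, 3.02, 2.46 and 2.20) and 1 (Smpd1, acid sphingomyelinase, at -2.99), beside 6.25% of all genes. Their median differences were -0.18, 0.06, 0.39 and 0.32 in the 4 pairwise comparisons and 0.11 in all hybrids, where 35 of 59 lay above 0, beside 52.2% of all genes.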

How the data were processed

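For each array the authors deposited Agilent Feature Extraction 10.7.3.1 output, whose signals (processed, mean and background) are intensities by their column headings, per the file headers. Other columns deposited by the authors are marks of 0 or 1 per spot, such as well above background. The authors' deposited matrix of log2 values follows mean signal minus background in rank, with a median of 7.39 on the first slide and 6.26 on the FoxA2-Cre slide. Its tool and normalization are not given in the sources used here.

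Values were log2 processed signal minus the array's 75th percentile over the 9510 spots well above background on all 10 arrays. Non-uniform spots were left out, probes averaged, and genes kept if 2 or more arrays had their probe well above background. Comparisons used limma 3.58.1 in R 4.3.3, two-sided, with Benjamini-Hochberg adjustment over all 32054 genes at 0.05, fitting 5 group means with 1 spread (residual degrees of freedom: 5). A fold is written "at least" where 1 group was below background and both arrays of the other were well above it. The lowest signal well above background then replaces lower values. Such a fold holds for the processed signal used here and can be smaller with another background correction. The code was tested on simulated data.

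The members and lists were chosen with earlier results of these data known. Named were Grn and Hgsnat, members past the threshold, the 4 largest differences without overlap per direction, the brightest probe of each role group, and the 5 members most like Grn. Alternatives were normexp (offset 50), quantile scaling, the percentile over all probes, the authors' matrix, other filters (none, or 5 arrays), the mean of probes, slide row, slide column, replicate block, array weights, single slides, each array left out and probes without shared sequence. Values of some genes of the second lysosomal list are not reported here.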

Additional observations from a re-analysis of the deposited data

Results flagged for a closer look

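By the probe used for each gene, 5 members lay on opposite sides of their unfused cells, without array overlap, in hybrids of different recipients. With the pooled unfused cells as the shared comparison, Hgsnat was higher in R26Y hybrids (3.31) and lower in GFAP-Cre hybrids (-3.14), and it was 0.57 in FoxA2-Cre hybrids against their own unfused cells. These differences of Hgsnat were not tested, and the R26Y value rests on replicate 2. Its FoxA2-Cre value rests on hybrid arrays that were not well above background. Psap was lower in R26Y hybrids (-1.06) and higher in GFAP-Cre hybrids (1.05), and the direct difference of 2.11 did not pass in limma (adjusted p = 1.00). Neu1, a sialidase, was at -0.16 and 0.58 in the same order, with a direct difference of 0.74 (limma, adjusted p = 1.00).

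With the probe used, Arsb was higher in GFAP-Cre hybrids (1.13) and lower in FoxA2-Cre hybrids (-1.22), where it was not well above background. Its interaction did not pass (-1.88, limma, adjusted p = 0.815). The other Arsb probe, well above background on 4 arrays, had differences of 3.18 and -0.06, and its FoxA2-Cre groups overlapped. Atp6ap1 was lower in R26Y hybrids (-1.05) and GFAP-Cre hybrids (-1.34) and higher in FoxA2-Cre hybrids (fitted 2.38). It was well above background on only 1 of 2 FoxA2-Cre hybrid arrays and below it in their unfused cells, so no fold is given. Its interaction, which rests on the same cells, was 3.58 (limma, adjusted p = 0.471).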

How the results depend on the processing

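Of 417 recomputed counts and medians, 359 stayed within 1.5 times the count or within the spread between replicates (0.46), and 58 moved. The genes called in FoxA2-Cre hybrids (173) were 112 with normexp, 0 with slide row, 0 with slide column, 102 with array weights, 0 on the slide's own arrays and 60 without shared probes, an alternative chosen after seeing the data. The 1 member called there was 0 under each of these and with the authors' matrix. The members' median of 0.57 moved to -0.039 with quantile scaling and -0.023 with the authors' matrix. For the interaction, the 55 genes were 32 with normexp, 0 with slide row, 0 with slide column, 96 with array weights and 16 without shared probes, and the members' median of 0.37 was -0.40 with quantile scaling, -0.22 with the authors' matrix and -0.57 with slide row. The causes were not tested. Replicate numbers do not pair the arrays: same-numbered deviations correlated between -0.07 and 0.07. With the replicate block, FoxA2-Cre hybrids had 106 genes and 0 members called and the interaction 34 genes.

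Leaving out each array in turn gave 0 to 2304 genes, 0 to 4 members and medians of 0.04 to 0.47 for R26Y hybrids, 0, 0 and 0.05 to 0.63 for GFAP-Cre hybrids, and 61 to 560, 0 to 2 and 0.47 to 0.92 for FoxA2-Cre hybrids. For GFAP-Cre against R26Y hybrids the ranges were 0 to 2169, 0 to 3 and -0.04 to 0.45 (the upper 4 and 3 members include Hgsnat, for which no p is given), for all hybrids 0, 0 and 0.30 to 0.49, and for the interaction 0 to 308, 0 to 1 and 0.12 to 0.60. Of 931 recomputed values of named members, 8 changed sign, 16 lost and 6 gained a call. Those that changed sign were Psap in R26Y hybrids (0.12, normexp) and Cln3 there (0.0083, quantile; 0.14, 75th percentile over all probes). In GFAP-Cre hybrids they were Ctss (-2.28, slide column), Atp6ap1 (0.13, mean of probes) and Atp6v1a (0.79, slide row), and in FoxA2-Cre hybrids Grn (-0.45, quantile) and Arsb (0.26, normexp). Signal over background also limits the FoxA2-Cre values: 8 of 37 members were well above background on all 4 arrays.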
